A study of Mus musculus with 12 samples.

Results

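The genes described here take up, store, release and recycle iron. They are Fth1 and Ftl1 (the subunits of ferritin), Hmox1 (heme oxygenase 1), Cp (ceruloplasmin), Slc40a1 (ferroportin), Trf (transferrin), Tfrc (the transferrin receptor), Slc39a14 (the transporter ZIP14) and Slc11a1 (the transporter NRAMP1). They were taken by gene symbol, and all 9 were found among the 54532 genes of the deposited table. All 9 are protein coding. The test required at least 0.5 FPKM in at least 3 libraries, and 8 of them reached that level in all 12 libraries and Slc40a1 in 10.

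RNA was sequenced from the hippocampus of pups of the inbred C57BL/6J strain on postnatal day 15 (P15). LL pups had received lipopolysaccharide (LPS, an outer membrane molecule of bacteria to which immune cells respond) on day 3 and again on day 14. SL pups had received saline on day 3 and LPS on day 14. LS pups had received LPS on day 3 and saline on day 14. SS pups had received saline on both days. The dose of LPS was 5 mg/kg, given under the skin on day 3 and into the abdomen on day 14, and tissue was taken 24 h after the day-14 injection. Each group held 3 animals per the labels, so the spread is between animals, and their sex is not given in the labels. The groups ask how the brain answers a first LPS on day 14, what an LPS on day 3 leaves behind, and whether the earlier LPS changes the answer to the later one.

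Iron enters most cells as transferrin-bound iron through the transferrin receptor, and iron that is not bound to transferrin enters through transporters such as ZIP14. Inside the cell it is held in ferritin, a shell of heavy subunits, which oxidise iron, and light subunits, which help to lay it down as mineral. Ferroportin is the known iron exporter of mammalian cells, and it works with copper ferroxidases such as ceruloplasmin, which astrocytes make in the brain. Heme oxygenase 1 breaks heme and sets its iron free, and NRAMP1 moves iron out of the phagosomes of myeloid cells. In infection, macrophages are known to hold iron back, with more ferritin and less ferroportin.

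Several of these genes are also controlled after transcription. Iron regulatory proteins bind hairpins called iron-responsive elements. Bound near the start of a message, they block its translation, and bound after the coding part of Tfrc, they protect the message from decay. The elements are shown because they divide the 9 genes by a kind of control that RNA levels alone do not display. A search of GENCODE vM21 transcripts (build GRCm38, the sense strand only) asked for CNNNNNCAGTGN with 5 paired bases above the C and at least 4 of 6 paired positions below it, G-T pairs included. In the 5′ untranslated region it found Slc40a1, Fth1 and Ftl1, and 0.03% of the 20022 genes searched held a match there. In the 3′ untranslated region it found Tfrc, with 4 matches, and 0.0768% of 20825 genes held one there. The capitals mark the 6-base loop in each 29-base window, written 5′ to 3′ as DNA.
Fth1, chr19:9982732-9982760, plus strand, 5′ untranslated region: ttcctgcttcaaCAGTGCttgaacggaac
Ftl1, chr7:45459779-45459807, minus strand, 5′ untranslated region: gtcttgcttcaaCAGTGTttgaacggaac
Slc40a1, chr1:45925465-45925493, minus strand, 5′ untranslated region: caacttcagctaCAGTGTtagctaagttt
Tfrc, chr16:32631219-32631247, plus strand, 3′ untranslated region: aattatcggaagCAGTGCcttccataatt
Tfrc, chr16:32631598-32631626, plus strand, 3′ untranslated region: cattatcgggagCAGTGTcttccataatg
Tfrc, chr16:32631663-32631691, plus strand, 3′ untranslated region: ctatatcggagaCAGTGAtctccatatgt
Tfrc, chr16:32631710-32631738, plus strand, 3′ untranslated region: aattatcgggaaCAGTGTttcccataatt
The elements of Fth1 and Ftl1 were identical at 26 of 29 bases, and those of Fth1 and Slc40a1 at 13 of 29. A match is a description of the sequence, and protein levels and translation were not measured.

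The libraries held 16979666 to 24105022 fragments, with the LL libraries deepest (21926635 to 24105022) and the SS libraries shallowest (16979666 to 18425733). All 8 hippocampal neuron markers were detected in every library, with a summed level of 960.4 to 1143 FPKM. Before the iron genes are described, 2 libraries need a remark. LS replicates 2 and 3 stood apart in markers of the choroid plexus, the secretory tissue of the ventricle that adjoins the hippocampus. The 15 markers summed to 56.7 and 22.4 FPKM there, against 1142 FPKM in LS replicate 1. In the other groups they summed to 2260 to 3210 FPKM in LL, 628.7 to 883.4 FPKM in SL and 2177 to 2565 FPKM in SS. Results that rest on the LS group are therefore also given without these 2 libraries. In whole tissue, fewer cells of a type and less RNA per cell cannot be told apart.

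LPS on day 14 changed 8 of the 9 iron genes in pups that had not met it before. In SL against SS, 7 genes rose, and 7.06% of the 17687 tested genes were called higher. A single gene, Slc40a1, fell, and 3.77% of tested genes were called lower. The median log2 fold change was 1.10 for the 9 genes and -0.00363 for all tested genes. Calls are limma adjusted p of at most 0.05, over all tested genes, and each log2 fold change was taken after adding 0.5 FPKM, so that changes of genes with low levels come out too small. LPS on day 3 alone left none of the 9 called by limma. In LS against SS limma called 0 (0.311% of all tested genes were called in either direction), and limma voom called 1. An unadjusted limma p under 0.05 was found there for 3 of the 9, and for 2230 of the 17687 tested genes. When pups already given LPS on day 3 received it again (LL against LS), 3 genes rose and 0 fell, where 2.66% of tested genes were called, 2.4% higher.

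**Figure D1:**
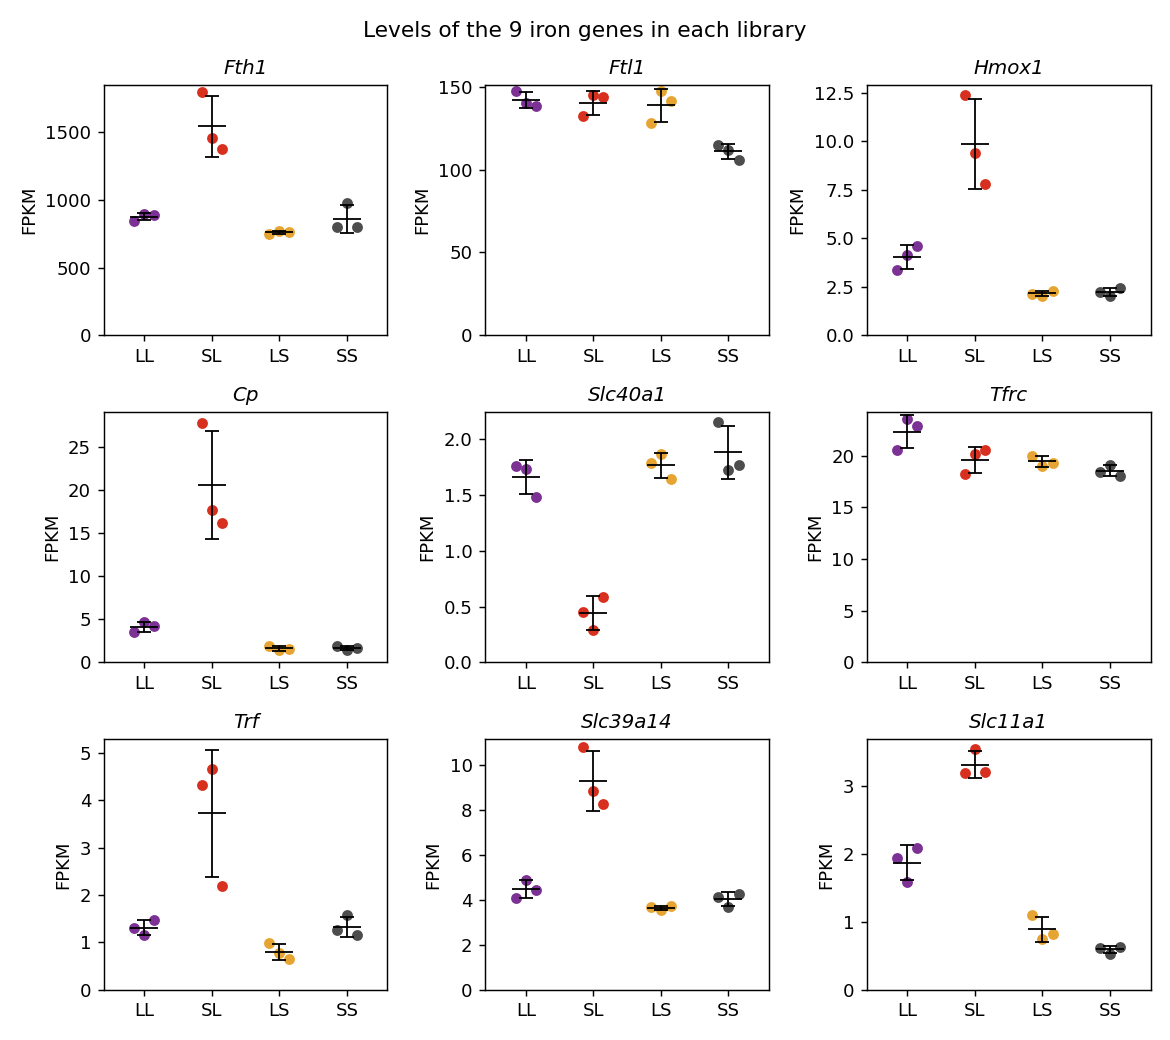
FPKM of the 9 iron genes in each library (points), with the mean (long bar) and SD (error bar) of 3 animals, in the groups LL, SL, LS and SS. The SL libraries lie above all others for Fth1, Hmox1, Cp, Trf, Slc39a14 and Slc11a1 and below all others for Slc40a1, while Ftl1 is lowest in SS.

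Ferritin heavy chain was by far the most abundant of the 9 messages. By mean FPKM Fth1 (chromosome 19, 9982703 to 9985092, mm10) ranked 16 among all genes. Its level was 848, 897 and 886 FPKM in LL, 1799, 1461 and 1375 in SL, 747, 772 and 763 in LS, and 799, 981 and 798 in SS. The SL libraries were the highest and overlapped no other group, whereas the LL values fell within the range of the SS values. Fth1 rose in SL by 0.84 on the log2 scale (SE 0.11; limma adjusted p = 0.000227), or 1.80-fold in mean FPKM. LL differed from LS by 0.20 (SE 0.11; adjusted p = 0.441), and LL was below SL, with a log2 difference of -0.81 (SE 0.11; adjusted p = 0.000553). SL replicate 1, the highest for Fth1, was also the highest library for Hmox1, Cp and Slc39a14.

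Ferritin light chain, encoded by Ftl1 (chromosome 7, 45457944 to 45459884), followed another pattern. It stood at 147, 140 and 138 FPKM in LL, 132, 145 and 144 in SL, 128, 148 and 141 in LS, and 115, 112 and 106 in SS. Every library of a pup given LPS, on either day, was above every SS library, and the 3 LPS groups overlapped each other. Ftl1 rose in SL against SS by 0.34 (SE 0.06; limma adjusted p = 0.00339) and in LL against SS by 0.35 (SE 0.06; adjusted p = 0.00833). In LS against SS the difference was 0.32 (SE 0.06) with an adjusted p = 0.0576. That difference passed the threshold with limma voom (0.32, adjusted p = 0.0236), with quantile normalization (0.36, adjusted p = 0.014) and without LS replicate 1 (0.38, adjusted p = 0.012). With the choroid plexus marker score as a covariate, the SL against SS difference was 0.22 (adjusted p = 0.11).

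Per length of transcript, the heavy chain message outnumbered the light chain message in every library, and their ratio differed between groups. The ratio of Fth1 to Ftl1 FPKM was 6.19 ± 0.373 in LL, 11.1 ± 2.2 in SL, 5.49 ± 0.31 in LS and 7.75 ± 0.925 in SS (SD, n = 3 each). The SL values (9.56 to 13.6) lay above the SS values (6.94 to 8.76), and the LL values (5.76 to 6.41) and LS values (5.23 to 5.83) lay below them. The ratio is a description and was not tested. Ferritin genes have many processed copies in the genome. The table lists 14 further genes named Fth or Ftl, of which 9 were at 0 in all libraries. The highest of the others was Ftl1-ps1, at 1.55 to 3.55 FPKM, whose 5′ region also held a match to the hairpin. The sources used here do not give how fragments shared between such copies were counted, so the levels of Fth1 and Ftl1 carry that uncertainty.

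**Figure D2:**
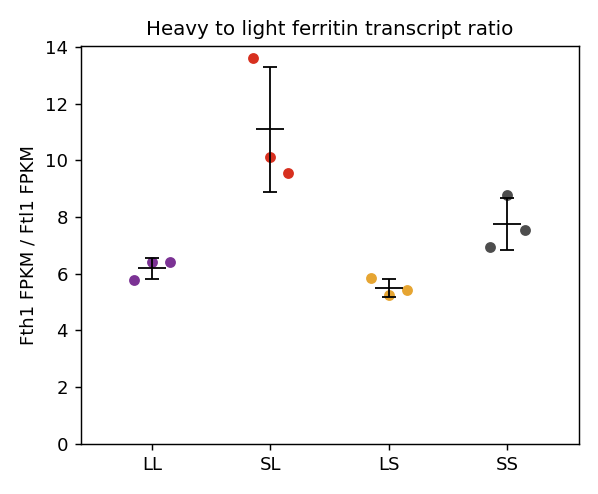
Ratio of Fth1 to Ftl1 FPKM in each library (points), with the mean (long bar) and SD (error bar) of 3 animals. The SL libraries, at 9.56 to 13.6, lie above the SS libraries, at 6.94 to 8.76, and the LL (5.76 to 6.41) and LS (5.23 to 5.83) libraries lie below both.

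Hmox1 (chromosome 8, 75093621 to 75100589), the inducible heme oxygenase, was called higher after LPS on day 14 in pups of either history. The rise was smaller in those given LPS on day 3, and its call there was lost in some settings. Its level was 3.35, 4.16 and 4.59 FPKM in LL, 12.4, 9.42 and 7.79 in SL, 2.13, 2.04 and 2.29 in LS, and 2.21, 2.05 and 2.44 in SS. The SL libraries lay above the LL libraries, these lay above all others, and LS and SS overlapped. The log2 fold change was 1.90 (SE 0.15; limma adjusted p = 5.1e-06) in SL against SS and 0.76 (SE 0.15; adjusted p = 0.0196) in LL against LS. LL was below SL, with a log2 difference of -1.18 (SE 0.15; adjusted p = 0.000397) and higher than SS by 0.72 (SE 0.15; adjusted p = 0.0252). The call in LL against LS ended without LL replicate 2 (adjusted p = 0.0838), LL replicate 3 (0.0954), LS replicate 2 (0.0872) or LS replicate 3 (0.0572). The call in LL against SS ended with the replicate number as a block (adjusted p = 0.0596), with limma voom (0.0804), with no filter on low levels (0.0615), without LS replicates 2 and 3 together (0.0672), without LL replicate 2 (0.105) or LL replicate 3 (0.101), and without SS replicate 1 (0.0796), SS replicate 2 (0.104) or SS replicate 3 (0.0547). The Hmox1 values rest on 62 to 460 fragments per library.

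Cp (chromosome 3, 19957054 to 20009145) showed the largest difference of the 9 genes in SL against SS. It was at 3.56, 4.65 and 4.18 FPKM in LL, 27.8, 17.8 and 16.2 in SL, 1.97, 1.46 and 1.53 in LS, and 1.87, 1.45 and 1.66 in SS. SL stood above LL and LL above the saline-on-day-14 groups without overlap, and LS and SS overlapped. The log2 fold change was 3.25 (SE 0.18; limma adjusted p = 3.6e-07) in SL against SS, a ratio of mean FPKM of 12.4. Cp rose in LL against LS by 1.11 (SE 0.18; adjusted p = 0.00759), and LL was below SL, with a log2 difference of -2.15 (SE 0.18; adjusted p = 2.5e-05). The 8 astrocyte markers, genes of the cells that make ceruloplasmin, summed to 549.6 to 612.9 FPKM in LL, 876.4 to 1055 in SL, 562.4 to 572 in LS and 536.2 to 565.6 in SS. Most of the higher sum in SL was Gfap, a gene of reactive astrocytes, with a mean of 427.1 FPKM in SL and 87.22 FPKM in SS. By limma 4 of the 8 markers rose in SL against SS (Gfap, Aqp4, Sox9 and Slc1a3), Gja1 fell (-0.46, SE 0.06; adjusted p = 0.00046), and Slc1a2, Aldh1l1 and Gjb6 were not called. Of all tested genes, 7.06% were called higher and 3.77% lower there. The part of astrocytes in the Cp result was not tested. Hps3 overlaps Cp on the opposite strand and reached 2.9 FPKM at most, and the sources used here do not give whether counting used strand.

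Slc40a1 (chromosome 1, 45908068 to 45926523), the iron exporter, was the gene that fell. It had 1.76, 1.73 and 1.48 FPKM in LL, 0.456, 0.288 and 0.585 in SL, 1.78, 1.87 and 1.64 in LS, and 2.15, 1.72 and 1.77 in SS. The SL libraries were far below all others, and the other 3 groups overlapped. Slc40a1 fell in SL by 1.34 on the log2 scale (SE 0.13; limma adjusted p = 2.3e-05), and its mean FPKM in SL was 0.236 of that in SS. For LL against LS the log2 fold change was -0.07 (SE 0.13; adjusted p = 0.881), and LL was higher than SL by 1.20 (SE 0.13; adjusted p = 0.000113). With limma voom, which adds no 0.5 FPKM, the log2 fold change in SL against SS was -2.14, and the LL against SL difference was 1.96. The SL values rest on 50 to 95 fragments, against 267 to 329 in SS. Resting microglia markers were lower in SL as well: the 11 genes summed to 118.5 to 126.1 FPKM in LL, 53.99 to 77.88 in SL, 96.21 to 104 in LS and 93.11 to 97.14 in SS. In SL against SS 6 of the 11 fell and 1, Cx3cr1, rose, where 3.77% of tested genes were called lower and 7.06% higher. The 10 brain endothelium markers summed to 139.5 to 156.8, 124.6 to 146.5, 129.3 to 131.8 and 123.7 to 129.7 FPKM in LL, SL, LS and SS. Of these 10 genes, 3 rose and 2 fell in SL against SS by limma, beside the same shares of all tested genes: Slc2a1 (0.61, SE 0.05; adjusted p = 7.08e-06), Ly6c1 (0.97, SE 0.13; 0.000307) and Pecam1 (0.42, SE 0.09; 0.0129) were higher, and Slco1c1 (-1.28, SE 0.12; 2.18e-05) and Mfsd2a (-0.65, SE 0.06; 1.27e-05) were lower. The part of either cell type in the Slc40a1 result was not tested.

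**Figure D3:**
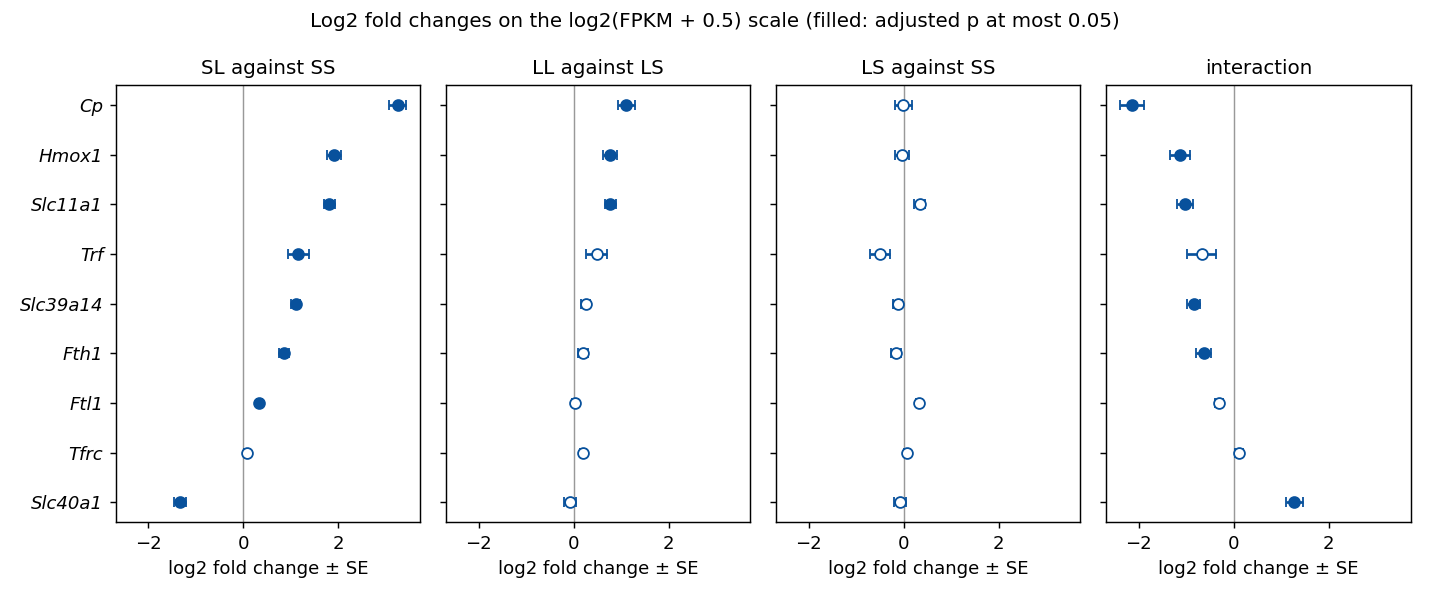
Log2 fold changes (points) with their SE (bars) of the 9 genes in SL against SS, LL against LS, LS against SS, and for the interaction (LL against LS minus SL against SS). Filled points passed an adjusted p of 0.05. Cp, at 3.25 in SL against SS and 1.11 in LL against LS, is the rightmost gene in both, and Slc40a1 alone lies on the opposite side of 0 for SL against SS.

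Trf (chromosome 9, 103204001 to 103230444) rose in SL against SS. Transferrin, its product, is made in the brain chiefly by oligodendrocytes and the choroid plexus. It was at 1.3, 1.15 and 1.48 FPKM in LL, 4.33, 4.66 and 2.19 in SL, 0.977, 0.778 and 0.638 in LS, and 1.26, 1.57 and 1.16 in SS. SL was the highest group and LS the lowest, each without overlap with the rest, and LL overlapped SS. Trf rose in SL by 1.16 (SE 0.22; limma adjusted p = 0.00438), and LL was below SL, with a log2 difference of -1.17 (SE 0.22; adjusted p = 0.00568). In LS against SS the log2 fold change was -0.50 (SE 0.22; adjusted p = 0.378), and in LL against LS it was 0.48 (SE 0.22; adjusted p = 0.364). The 13 markers of myelinating oligodendrocytes summed to 610.9 to 907.4 FPKM in LL, 934.4 to 1342 in SL, 814.3 to 980.2 in LS and 1195 to 1307 in SS. SL therefore had no higher marker sums than SS beyond a single library, whereas LS and LL were below SS. Both these markers and the choroid plexus markers were lower in LS than in SS. The choroid plexus markers were lower in SL too, at 628.7 to 883.4 FPKM against 2177 to 2565 FPKM in SS. The part of oligodendrocytes or the choroid plexus in the Trf values was not tested. The LS values rest on 39 to 66 fragments.

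Tfrc (chromosome 16, 32608920 to 32632794), the receptor that takes up transferrin-bound iron, varied little. It had 20.6, 23.6 and 22.9 FPKM in LL, 18.2, 20.2 and 20.5 in SL, 20, 19.1 and 19.3 in LS, and 18.4, 19.2 and 18.1 in SS. Only the LL libraries lay above all libraries of the other groups. In SL against SS its log2 fold change was 0.08 (SE 0.06; limma adjusted p = 0.515). In LL against SS it was higher by 0.26 (SE 0.06; adjusted p = 0.0489), a call kept in 6 of the 23 other settings and lost in the rest, among them the replicate number as a block (adjusted p = 0.0576), removal of any SS replicate and median centring (0.0884). It was kept without LL replicate 1 or SL replicate 1, with limma voom, quantile normalization, a pseudocount of 0.1 FPKM and a filter of 2 FPKM.

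Slc39a14 (chromosome 14, 70303469 to 70351425), whose product ZIP14 imports iron and other metals, was at 4.09, 4.88 and 4.45 FPKM in LL, 10.8, 8.85 and 8.26 in SL, 3.7, 3.55 and 3.71 in LS, and 4.14, 3.71 and 4.28 in SS. SL lay above the rest without overlap, and LL overlapped SS. It rose in SL by 1.10 (SE 0.09; limma adjusted p = 1.17e-05). The difference of LL from LS was 0.26 (SE 0.09; adjusted p = 0.246), and LL was below SL, with a log2 difference of -0.97 (SE 0.09; adjusted p = 7.27e-05).

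Slc11a1 (chromosome 1, 74375195 to 74386062) is a gene of myeloid cells, and its level followed the order SL, LL, LS, SS with no overlap between groups. The values were 1.94, 1.59 and 2.09 FPKM in LL, 3.2, 3.54 and 3.22 in SL, 1.1, 0.751 and 0.821 in LS, and 0.618, 0.532 and 0.628 in SS. It rose by 1.80 (SE 0.12; limma adjusted p = 1.04e-06) in SL against SS and by 0.77 (SE 0.12; adjusted p = 0.00469) in LL against LS. LL was below SL, with a log2 difference of -0.69 (SE 0.12; adjusted p = 0.00296) and higher than SS by 1.11 (SE 0.12; adjusted p = 0.000269). The lowest pair in that order, LS against SS, differed by 0.34 (SE 0.12; adjusted p = 0.259). C57BL/6 mice are known to carry a form of this gene whose protein does not work, and only its RNA was measured here. Neutrophils also express the gene, and their 9 markers summed to 7.74 to 9.13 FPKM in LL, 120.4 to 239.3 in SL, 3.76 to 4.52 in LS and 2.63 to 3.71 in SS. By limma S100a8, S100a9, Csf3r and Mmp9 rose in SL against SS, where 7.06% of tested genes were called higher. Cxcr2, Retnlg and Ngp, the rest of the 7 tested markers, were also called higher. They reached the 0.5 FPKM filter only through SL, at means of 1.076, 5.165 and 4.785 FPKM there. In the other groups their means were at most 0.0458, 0.0958 and 0.189 FPKM. Their calls thus followed from the filter and add no support. Elane, a gene of immature neutrophils, was not tested, and was listed at 0 in all SL, LS and SS libraries. Mpo was not tested either, at means of 0.0818, 0.106, 0.0855 and 0.111 FPKM in LL, SL, LS and SS. The neutrophil sums and Slc11a1 were both highest in SL, and the part of neutrophils in the Slc11a1 result was not tested.

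The response to LPS on day 14 differed with LPS on day 3 for 6 of the 9 genes. The interaction, which is the log2 fold change of LL against LS minus that of SL against SS, was negative for 5 genes and positive for Slc40a1, where 5.33% of tested genes were called, 3.19% negative and 2.14% positive. It was -2.14 for Cp (SE 0.25; limma adjusted p = 0.000518), -1.14 for Hmox1 (SE 0.21; 0.00795), -1.03 for Slc11a1 (SE 0.16; 0.00345), -0.85 for Slc39a14 (SE 0.13; 0.00349) and -0.64 for Fth1 (SE 0.15; 0.0302). For Slc40a1 it was 1.27 (SE 0.18; adjusted p = 0.00168), and 2.05 with limma voom. Trf (-0.67, SE 0.31; 0.292), Ftl1 (-0.30, SE 0.09; 0.0714) and Tfrc (0.12, SE 0.08; 0.554) did not pass the test. The Fth1 call was kept in 11 of 22 other settings and lost with no filter (adjusted p = 0.152) and on removal of LL replicate 1 (adjusted p = 0.0746), 2 (0.0621) or 3 (0.0667), SL replicate 2 (0.0514), LS replicate 2 (0.0743) or 3 (0.0669), and SS replicate 1 (0.0806) or 3 (0.0786). Trf passed the threshold without SL replicate 3 (-0.97, adjusted p = 0.0169). Ftl1 passed it with quantile normalization (-0.29, adjusted p = 0.0309) and without SL replicate 1 (-0.35, 0.0485) or LS replicate 1 (-0.36, 0.0201).

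The LS group enters both the interaction and the comparison of LL with LS. Without LS replicates 2 and 3 together, the LS group is a single library, assumed to vary like the other groups. The 3 calls of LL against LS then ended, at 0.77 for Hmox1 (adjusted p = 0.329), 0.90 for Cp (0.328) and 0.56 for Slc11a1 (0.254), and 4 interactions were called, with Hmox1 (-1.13, adjusted p = 0.0853) and Fth1 (-0.61, 0.199) lost. With the choroid plexus marker score as a covariate, the LL against LS values were 0.68, 0.73 and 0.43 for Hmox1, Cp and Slc11a1 (adjusted p between 0.62 and 0.648). The interactions of Cp (-2.77, adjusted p = 0.044) and Slc11a1 (-1.61, 0.0415) stayed called in that fit. Those of Slc40a1 (1.26, adjusted p = 0.246), Hmox1 (-1.28, 0.341), Slc39a14 (-0.95, 0.241) and Fth1 (-0.57, 0.625) kept their size with larger SE (0.37, 0.43, 0.28 and 0.30). With only the LL and LS libraries in the fit, Slc11a1 had an adjusted p = 0.0554.

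Set directly against SL, with LPS 24 h earlier in both groups, LL had 6 genes lower (Cp, Hmox1, Trf, Slc39a14, Fth1 and Slc11a1) and 1 higher (Slc40a1), where 8.79% of tested genes were called, 5.46% lower and 3.32% higher. Tfrc (0.18, SE 0.06; limma adjusted p = 0.0933) and Ftl1 (0.02, SE 0.06; 0.921) did not pass the test. These 7 calls were kept in every other setting that tested the gene, also with the choroid plexus covariate. Against SS, which shares the LL libraries with the comparison above, LL had 5 genes higher (Slc11a1, Cp, Hmox1, Ftl1 and Tfrc) and 0 lower by limma, where 2.13% of tested genes were called higher. Cp was higher by 1.10 (SE 0.18; adjusted p = 0.00607). Fth1 (0.04, SE 0.11; 0.931), Trf (-0.01, SE 0.22; 0.99), Slc39a14 (0.13, SE 0.09; 0.649) and Slc40a1 (-0.14, SE 0.13; 0.732) were not called. In SL against LS, where LPS was given on day 14 only or on day 3 only, 6 genes rose and Slc40a1 fell, where 7.41% of tested genes were called higher and 4.6% lower. Ftl1 (0.01, SE 0.06; adjusted p = 0.925) and Tfrc (0.01, SE 0.06; 0.944) were the exceptions.

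The genes whose levels ran most closely with each of the 9 over the 12 libraries were found by Pearson correlation of log2(FPKM + 0.5) among protein-coding genes. These values are descriptions, since the 12 libraries share the group differences. Cp ran with the chemokine genes Ccl7 and Ccl2 and with Ifitm1 (r = 0.996 each), and Hmox1 with Ccl7 (0.992), the Fc receptor gene Fcgr2b (0.992) and Ms4a6c (0.988). Slc11a1 ran with the myeloid lysozyme gene Lyz2 (0.991), Rac2 (0.989) and the complement receptor gene C3ar1 (0.986). Slc39a14 ran with Lilr4b, the TNF receptor gene Tnfrsf1a and the heat shock gene Hspb1 (0.992 each). Fth1 ran with Susd6 (0.984), Serpina3i (0.981) and 2010005H15Rik (0.979), and Trf with Galnt6 (0.961), Trim56 (0.957) and Clu (0.955). Slc40a1 was closest to Itm2a (0.976), Slc38a3 (0.975) and the endothelin receptor gene Ednrb (0.973). Among the genes close to Tfrc were I830077J02Rik (0.894) and the microglial receptor gene Cx3cr1 (0.893), and Ftl1 ran with Arhgap4 (0.925), Plcxd2 (0.906) and Rasa4 (0.895). Among the 9 themselves, Hmox1 and Cp were closest (0.991), and Slc40a1 ran against Slc39a14 (-0.946), Fth1 (-0.935) and Cp (-0.927).

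Other genes of iron and heme handling were read from lists of the pathway, whose median log2 fold changes in SL against SS were 0.303 for uptake, -0.0722 for hepcidin and iron regulatory proteins, 0.123 for storage and export, 0.0873 for heme scavenging, 0.0151 for heme synthesis and 0.0934 for the NRF2 axis. Among further uptake and iron-binding genes, 10 of 14 listed in the table were tested. In SL against SS 4 rose and 0 fell, in LL against LS 4 rose and 0 fell, and in LS against SS 0 rose and 1 fell. Of all tested genes, 7.06% rose and 3.77% fell in SL against SS, and 2.4% rose and 0.26% fell in LL against LS. In LS against SS 0.147% rose and 0.164% fell. These shares apply to the lists below as well. The LL against LS count was lower in 21 of 23 other settings. It was 2 without any single LL or SS replicate, SL replicate 2, LS replicate 2 or LS replicate 3, 1 with the compared groups alone, and 0 with the choroid plexus covariate. Lcn2, which encodes lipocalin 2, a protein that binds the iron carriers of bacteria, was at 4.02, 13.6 and 6.84 FPKM in LL, 283, 165 and 130 in SL, 1.29, 0.189 and 0.207 in LS, and 0.403, 0.0663 and 0.0826 in SS. The metalloreductase gene Steap4 was at 1.08, 1.63 and 1.76 FPKM in LL, 78.8, 51.5 and 32.7 in SL, 0.639, 0.11 and 0.138 in LS, and 0.521, 0.569 and 0.601 in SS. Both rose steeply in SL, by 8.10 (SE 0.47; limma adjusted p = 4.81e-07) and 5.60 (SE 0.30; 3.11e-07), and the LL levels lay between SL and the groups given saline on day 14. By limma LL was higher than SS for Lcn2 (3.54, SE 0.47; adjusted p = 0.00142), while Steap4 was not called there (0.89, SE 0.30; 0.22).

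Steap1, a related gene, moved otherwise. It was at 3.86, 3.49 and 4.18 FPKM in LL, 2.12, 1.66 and 0.966 in SL, 1.21, 0.216 and 0.276 in LS, and 3.5, 3.41 and 2.48 in SS. LS replicates 2 and 3, the libraries lowest in choroid plexus markers, were the lowest here too. Steap1 fell in LS by 1.87 on the log2 scale (SE 0.31; limma adjusted p = 0.0345) and rose in LL against LS by 2.14 (SE 0.31; 0.00368). The LS against SS call, the single one of the list there, was lost without any single LL or SS replicate, SL replicate 2, LS replicate 2 or LS replicate 3. Steap2 rose in LL against LS by 0.54 (SE 0.13; 0.0471). The part of the choroid plexus in these values was not tested.

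In the list of hepcidin and iron regulatory protein genes, 10 of 14 were tested, and the hepcidin genes Hamp and Hamp2 were not, with mean levels of 0.0344 and 0.317 FPKM in LL, 0.286 and 0.223 in SL, 0.04 and 0.143 in LS and 0.139 and 0.235 in SS. Bmp6, a signal that induces hepcidin in the liver, was at 5.53, 4.68 and 5.35 FPKM in LL, 1.67, 1.61 and 1.75 in SL, 4.34, 3.01 and 2.65 in LS, and 5.04, 4.04 and 5.9 in SS. The SL libraries were the lowest, LS lay next with an overlap with SS, and LL overlapped SS. Bmp6 fell in SL by 1.32 (SE 0.16; limma adjusted p = 0.000142), the single call of the 10 in SL against SS. Hfe, the hemochromatosis gene, was at 3.31, 3.79 and 3.35 FPKM in LL, 2.18, 1.86 and 2.14 in SL, 1.97, 1.53 and 1.28 in LS, and 2.76, 2.04 and 2.38 in SS. It rose in LL against LS by 0.94 (SE 0.13; adjusted p = 0.00283), as did Id1, a target of BMP signals (0.59, SE 0.13; 0.037), and these were the 2 calls of the list there, of which 1 was lost without any single LL replicate, SL replicate 3, LS replicate 2 or 3, or SS replicate 2 or 3. The LS libraries with low choroid plexus markers, replicates 2 and 3, were the lowest for Hfe and Id1, and the part of the choroid plexus was not tested. Neo1 was lower in SL than in LS (log2 difference -0.23, SE 0.06; 0.0256).

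**Figure D4:**
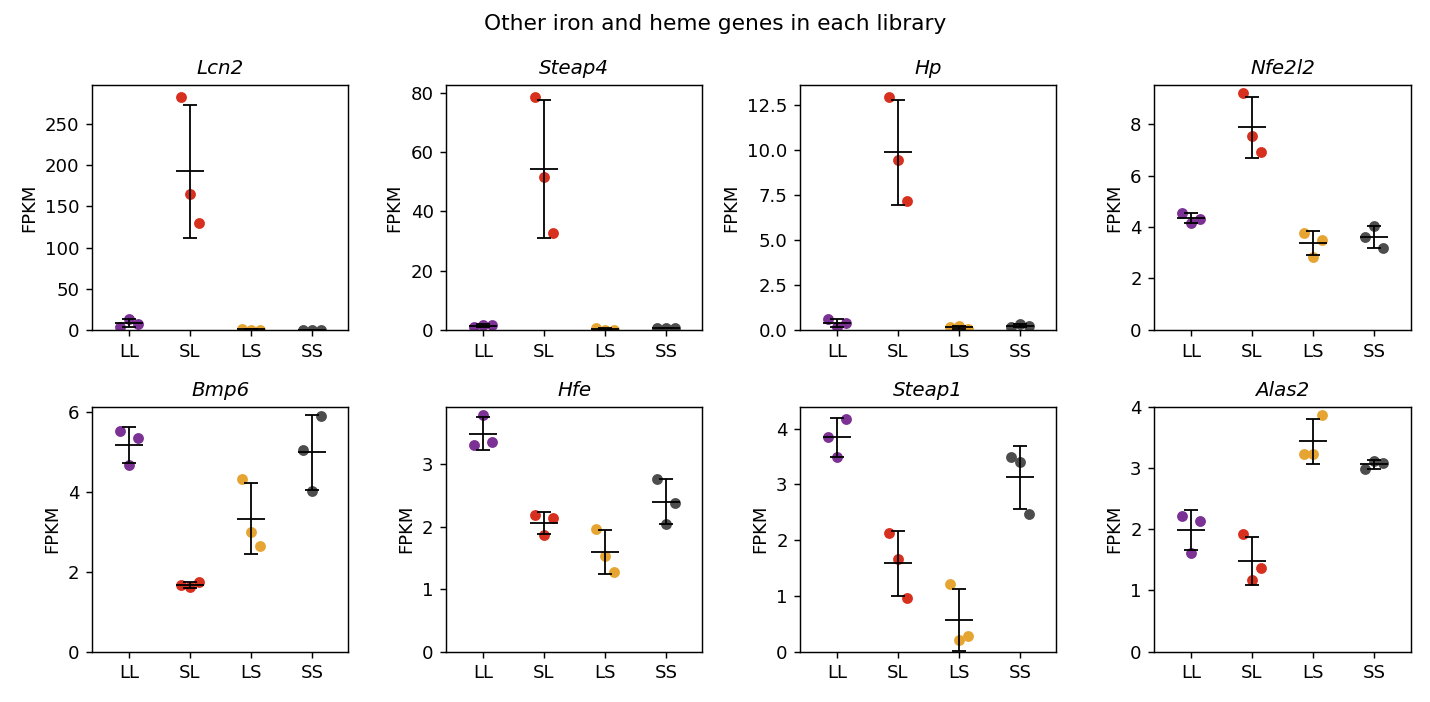
FPKM of other iron and heme genes in each library (points), with the mean (long bar) and SD (error bar) of 3 animals. Lcn2, Steap4, Hp and Nfe2l2 are highest in SL, Bmp6 is lowest in SL, Steap1 is lowest in LS replicates 2 and 3, and Alas2 is lower in LL and SL than in LS and SS.

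Of 7 tested genes for other ferritin handling and export, limma called 0 in SL against SS, and 1, the ferroxidase gene Heph, rose in LL against LS (0.73, SE 0.17; adjusted p = 0.0469). Heph was at 1.28, 1.63 and 1.38 FPKM in LL and 0.892, 0.609 and 0.51 in LS, again lowest in LS replicates 2 and 3, and its call there was lost in 18 of 23 other settings, among them without any single LL or SS replicate, SL replicate 3, LS replicate 2 or LS replicate 3. With the choroid plexus covariate, and also without LS replicates 2 and 3, 0 genes of the lists described here were called by limma in LL against LS. Of 8 tested genes that scavenge or break down heme, Hp rose and Slc46a1 fell in SL against SS, but 1 of these 2 calls was lost with no filter, with the compared groups alone, with the choroid plexus covariate, and without SL replicate 1, SL replicate 2, SS replicate 2 or SS replicate 3. The count was 3 with the replicate block and without LS replicate 3. Hp encodes haptoglobin, which binds free hemoglobin, and was at 0.601, 0.168 and 0.369 FPKM in LL, 12.9, 9.43 and 7.18 in SL, 0.153, 0.216 and 0.0338 in LS, and 0.146, 0.325 and 0.236 in SS. It rose in SL by 3.78 (SE 0.23; limma adjusted p = 6.77e-07), and in LL against LS its log2 fold change was 0.45 (SE 0.23; 0.433). Slc46a1, a transporter of heme and folate, fell in SL by 0.36 (SE 0.09; 0.0328).

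In the list of heme synthesis and mitochondrial iron genes, 18 were tested, of which 1 was called in SL against SS (10.8% of all tested genes were) and 1 in LL against LS (2.66% were), in each case Alas2, the heme synthesis enzyme of red cell precursors, which fell. The SL count was 2 with quantile normalization, limma voom, without LS replicate 2 or without LS replicates 2 and 3, and 3 with median centring or without SL replicate 1. The LL against LS count was 0 in 8 of 23 other settings, among them without LL replicate 2, LL replicate 3, LS replicate 2 or LS replicate 3. It was at 2.21, 1.61 and 2.13 FPKM in LL, 1.92, 1.17 and 1.36 in SL, 3.23, 3.22 and 3.86 in LS, and 2.98, 3.11 and 3.09 in SS. Alas2 fell by 0.86 (SE 0.14; limma adjusted p = 0.00159) in SL and by 0.67 (SE 0.14; 0.0276) in LL against LS. The red blood cell list, which holds Alas2 among its 7 genes, summed to 78.08 to 140.5 FPKM in LL, 57.75 to 93.36 in SL, 176.7 to 266.2 in LS and 198.5 to 233 in SS, so both moved together, and the part of blood in the result was not tested. Abcb10, a mitochondrial transporter, was lower in SL than in LS (-0.54, SE 0.09; 0.00282), and Urod was higher there (0.17, SE 0.05; 0.0385).

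NRF2, encoded by Nfe2l2, drives many genes that answer oxidative stress, Hmox1 among them, while BACH1 represses Hmox1. Of 13 tested genes of this axis, 4 rose and 0 fell in SL against SS, where 7.06% of tested genes were called higher. The count of 4 was lower in 7 of 23 other settings and higher in 4. It was 2 without SL replicate 1, SL replicate 3 or SS replicate 2, and 6 with median centring. Keap1, Bach1, Nqo1, Gclm, Gclc, Txnrd1, Srxn1, Me1 and Gpx4 were not called in SL against SS. Nfe2l2 was at 4.56, 4.17 and 4.33 FPKM in LL, 9.21, 7.54 and 6.91 in SL, 3.76, 2.84 and 3.5 in LS, and 3.62, 4.03 and 3.17 in SS, and it rose in SL by 1.03 (SE 0.12; limma adjusted p = 0.000119). Gsr, glutathione reductase, rose in SL by 0.75 (SE 0.10; 0.000247) and Slc7a11, the cystine transporter, by 0.39 (SE 0.10; 0.0265). Nqo1, a textbook NRF2 target, was at 2.15, 2.14 and 3.11 FPKM in LL, 1.52, 1.1 and 1.32 in SL, 1.87, 1.31 and 1.15 in LS, and 2, 2.01 and 2.06 in SS. Its difference in SL against SS was -0.48 (SE 0.16; adjusted p = 0.0782), and it was higher in LL than in SL by 0.70 (SE 0.16; 0.0167). In LL against LS limma called 0 of the 13, against 1 with limma voom and 2 without LS replicate 1.

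**Figure D5:**
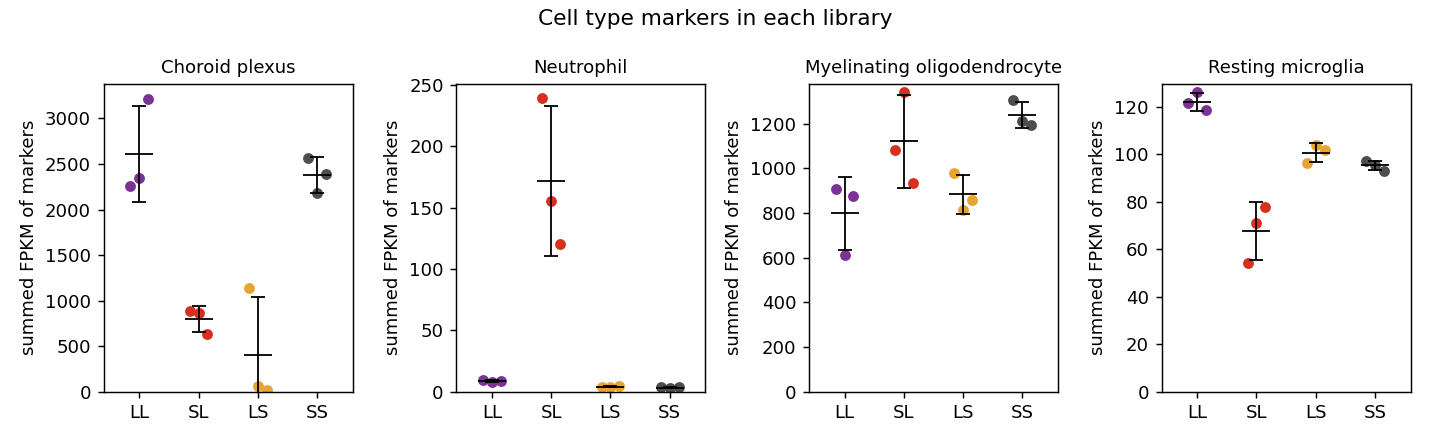
Summed FPKM of markers of the choroid plexus, neutrophils, myelinating oligodendrocytes and resting microglia in each library (points), with the mean (long bar) and SD (error bar) of 3 animals. LS replicates 2 and 3 are near 0 for the choroid plexus, the SL libraries are the highest for neutrophils and the lowest for resting microglia.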

How the data were processed

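Whole hippocampi of 12 mice were sequenced as polyA RNA. The values are FPKM, computed by the authors from fragment counts scaled for gene length and library total. Per the submitters' processing notes, the tools included HISAT2 2.0.5 and featureCounts 1.5.0-p3, with build mm10. Neither strand use nor the counting of multi-mapped fragments is given. The gene length and coordinates are the deposited ones, and other values, such as hairpin positions, are from GENCODE vM21. FPKM times length gave whole fragments within 0.01 for 100% of 309337 values above 0, and these served for depth and for limma voom. The 9 genes and all lists were chosen with earlier results of these data known.

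The 17687 genes that reached 0.5 FPKM in 3 or more libraries entered limma 3.58.1 (R 4.3.3) as log2(FPKM + 0.5). All 12 libraries shared the fit, which had a mean per group, 8 residual degrees of freedom and a trended prior variance. Two-sided p-values were adjusted by the Benjamini-Hochberg method, separately for each of 7 comparisons. An exact permutation test of 3 against 3 animals could not pass 0.05 and was not used. Named beside the 9 genes were up to 4 genes per list with the most calls and the 3 closest genes by correlation, of which 1 is not reported here. Replicate pairs differed by more than sampling noise (chi-square per gene of 3.78 to 12.5). The fit was tested on simulated counts. Other settings were pseudocounts of 0.1 and 1 FPKM, no filter, a filter of 2 FPKM, quantile normalization, median centring, a block for the replicate number, a fit of the compared groups alone, limma voom, the choroid plexus score (mean log2 value of its 15 markers) as a covariate, LS replicates 2 and 3 left out together, and each library left out.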

Additional observations from a re-analysis of the deposited data

Results flagged for a closer look

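For 6 of the 9 iron genes the response to LPS on day 14 differed between pups given LPS and pups given saline on day 3, by the interaction term of limma. Of all tested genes, 5.33% were called, 3.19% negative and 2.14% positive. The interaction was -2.14 for Cp, -1.14 for Hmox1, -1.03 for Slc11a1, -0.85 for Slc39a14, -0.64 for Fth1 and 1.27 for Slc40a1, on the log2 scale.

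Among other iron and heme genes named in the text, the interaction was -5.08 for Lcn2 (limma adjusted p = 0.00101), -4.23 for Steap4 (0.000188), -3.33 for Hp (0.00015), -0.69 for Nfe2l2 (0.0358) and -0.66 for Gsr (0.0145). It was positive at 2.97 for Steap1 (0.00215), 1.92 for Bmp6 (0.000444), 1.11 for Hfe (0.00392), 1.09 for Nqo1 (0.0139) and 0.82 for Steap2 (0.0204). For these last 5 genes, LS replicates 2 and 3, which had the lowest choroid plexus markers, were below LS replicate 1. The same held for Lcn2, Steap4 and Nfe2l2, with negative interactions, while for Hp and Gsr LS replicate 2 was above LS replicate 1. Among the iron genes with a called interaction it held for Cp and Slc11a1, and not for Hmox1, Slc39a14, Fth1 or Slc40a1.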

How the results depend on the processing

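None of the 36 called values of the 9 genes changed sign in any setting run, and 26 kept their call in every setting. The count of genes called in LS against SS, 0, was 1 with a filter of 2 FPKM, with quantile normalization and with limma voom, and 0 to 1 with single libraries left out. In LL against LS, 3 became 0 with the choroid plexus score and 0 without LS replicates 2 and 3. In LL against SS, 5 became 3 with no filter, 3 with the replicate block, 3 without LS replicates 2 and 3, and 3 to 5 with single libraries left out. For the interaction, 6 became 2 with the choroid plexus score. Counts in the other comparisons stayed within 1.5 times. A fit of the compared groups alone was not run for the interaction, and Slc40a1 was not tested with the filter of 2 FPKM. The cause of these changes was not tested. The replicate block changed no other call of the 9 genes. Same-numbered libraries did not deviate together (correlations of -0.0696 to 0.0959 over 18 pairs), so the numbers are not taken as pairs.

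Values that changed sign were all uncalled, and before the change of setting they lay between -0.068 and 0.036. Cp in LS against SS was 0.0016 with quantile normalization, 0.36 with the choroid plexus score, 0.20 without LS replicates 2 and 3, and -0.11 to 0.059 with single libraries left out. Hmox1 there was 0.040 with the score and -0.090 to 0.013 with single libraries left out, and Slc40a1 was -0.12 to 0.011. Tfrc in SL against LS was -0.0017 with quantile normalization, -0.054 with median centring, -0.0024 with the score, -0.029 without LS replicates 2 and 3, and -0.021 to 0.063 with single libraries left out. Ftl1 there was -0.0011 with quantile normalization, -0.050 with median centring, and -0.043 to 0.060 with single libraries left out. With single libraries left out, Ftl1 was -0.025 to 0.077 in LL against LS and -0.024 to 0.041 in LL against SL. In LL against SS, Trf was -0.080 to 0.080 and Fth1 -0.014 to 0.13. Depth limits Slc11a1 (34 to 253 fragments) and Trf (39 to 305).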
